A study of Arabidopsis thaliana with 84 samples.

Results

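Plastid-encoded genes are the genes carried on the plastid's own circular genome. Members were all probe sets of the Arabidopsis ATH1 array that the platform annotation pairs with 1 gene whose locus tag lies on the plastid chromosome of the RefSeq gene table. This gave 69 genes, each with 1 probe set, of 22810 probe sets on the array and of 78 plastid protein-coding gene symbols in RefSeq. A further 8 plastid probe sets match 2 gene copies each and were not members. The 69 genes were described across all 84 arrays of a study of nitrogen responses in *Arabidopsis thaliana* roots.

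The plastid genome encodes subunits of both photosystems, the cytochrome b6f complex, the ATP synthase and the NDH complex, the large subunit of Rubisco, and part of the machinery that transcribes and translates these genes. Neighbouring genes are often transcribed together as polycistronic RNAs by a plastid-encoded and a nuclear-encoded RNA polymerase. Root plastids are mostly not photosynthetic; they house nitrite reduction and ammonium assimilation, starch and fatty acid synthesis, and they still carry the whole genome. Plastid transcripts lack the stable poly(A) tails of nuclear mRNAs, and standard Affymetrix labelling primes on such tails. A level below is therefore the log2 signal of what was labelled, and how it relates to plastid RNA content was not tested.

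Every plant was Col-0 background, 12 days old, grown hydroponically with 0.5 mM ammonium succinate as the nitrogen source. From dawn, roots received 5 mM KNO3 or, as the control, 5 mM KCl for 2 h, or for 3.5 h in a pair of whole-root groups. Cells of the lateral root cap (LRC), the epidermis with cortex (EpiC), the endodermis with pericycle (EndoP), the pericycle alone (Peri) and the stele (Stele) were released by enzymatic digestion of the cell walls and collected by fluorescence-activated sorting; the marker lines and their promoters are not given in the sources used here. Each of the 5 populations had a continuous nitrate group, in which KNO3 stayed in the enzyme solution, a transitory nitrate group, in which it did not, and a KCl group. Peri cells also came from roots given 1 mM methionine sulfoximine (MSX), an inhibitor of glutamine synthetase: with KNO3 and 5 mM glutamine, with KNO3, and with KCl. Unsorted protoplasts, and whole roots incubated in the solution without enzymes, had continuous nitrate, transitory nitrate and KCl groups. Whole roots frozen at once after 3.5 h or 2 h had KNO3 and KCl groups. Each of the 28 groups had 3 arrays, called biological replicates in the labels. Since these are bulk samples, fewer cells of a type and less RNA per cell cannot be told apart.

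Sorted cells were labelled by a 2-cycle protocol (54 arrays) and roots and protoplasts by a 1-cycle protocol (30 arrays), so these were never compared with each other. Of the 1-cycle arrays, 4 correlated with the others at medians between 0.28 and 0.56 and were left out: frozen roots in KCl at 2 h replicate 1, incubated roots in KCl replicates 1 and 2, and incubated roots in continuous nitrate replicate 2. The incubated KCl group therefore rests on 1 array, which is taken to vary like the arrays of the other groups. Plastid medians of the 4 left out were 7.18, 7.90, 5.96 and 8.02 in that order, against 5.34 to 7.29 on those kept. All but incubated KCl replicate 2 correlated with each other at 0.85 to 0.90. No such limit was set for sorted arrays, where EndoP transitory replicate 1 (0.53) and LRC continuous replicate 1 (0.65) were kept. Few markers of the labelled cell types have a named probe set. RCPG of the lateral root cap was higher in LRC (2.27, adjusted p = 0.000919). EXPA7 of root hairs was higher in EndoP and Stele (1.98 and 1.95, adjusted p = 0.0352 and 0.0321), and had -1.42 in EpiC, where it did not pass. GSO1 of the endodermis did not pass in EndoP (0.65, adjusted p = 0.239) or in Peri, where it had 1.14, and was lower in LRC (-1.98). Of 3 cortex genes 0 passed in EpiC and 1 was higher in LRC (0.59, adjusted p = 0.0275), and LHW of the pericycle and stele did not pass in Peri or Stele (0.29 and 0.16, adjusted p = 0.734 and 0.824). A nuclear list of 13 photosynthesis genes, such as LHCB4 and RCA, was used as a marker of green tissue. Its median signal per array was between 6.01 and 9.25 in sorted cells and between 5.46 and 6.50 in the 1-cycle arrays used, with 8.46 to 9.25 on the EpiC arrays in KCl.

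**Figure D1:**
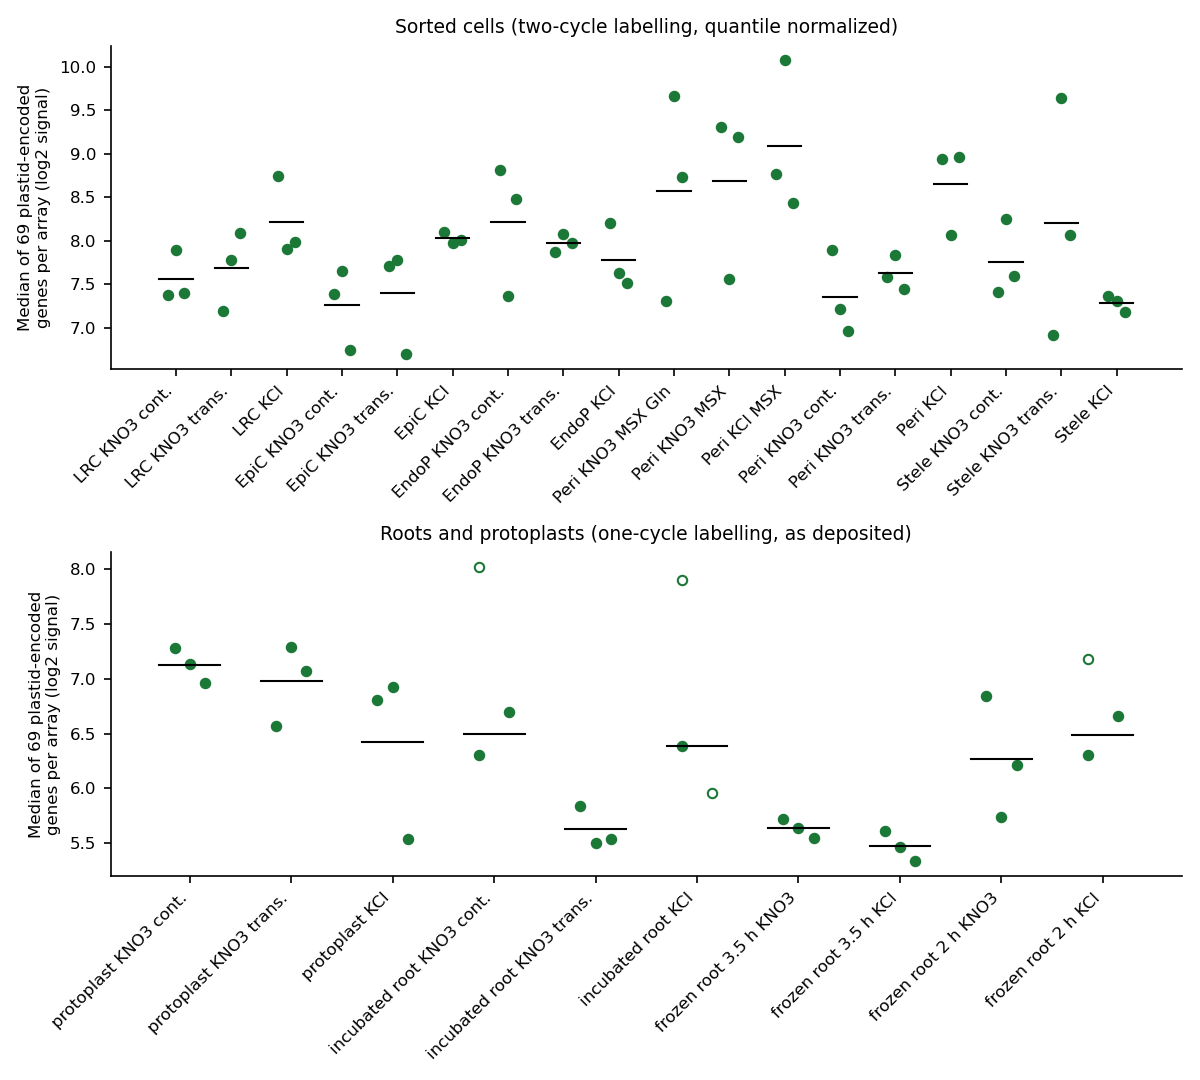
Median log2 signal of the 69 plastid-encoded genes on each array (points), by group, with the mean of the arrays used in the tests as a bar; open points are the 4 arrays left out. Medians of sorted arrays lie between 6.70 and 10.08, and all 6 arrays of frozen roots at 3.5 h lie between 5.34 and 5.72, below the 2 h arrays.

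In KCl, plastid-encoded genes differed between the sorted cell populations mainly in Stele, where 13 of 69 were lower and 1 was higher than the mean of the other 4 populations. Genes of the ATP synthase, photosystem II, the b6f complex and Rubisco were among those lower. RNA polymerase gene rpoA ran the other way, higher in Stele and EndoP and lower in LRC. Of all 19258 probe sets tested, 9.28% were lower in Stele, 11.3% were higher and 20.5% passed in either direction, next to 20.3% of the plastid genes. The share that passed was thus near that of all probe sets, and the side was mostly the lower one. The median difference in Stele was -0.905 over the plastid genes and -0.08 over all probe sets, and 65 of 69 differences were below 0. Members moved as a block between replicates, as described below, so this and later counts of signs do not count independent values.

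The gene rpoA encodes the alpha subunit of the plastid-encoded RNA polymerase. In KCl it measured 11.00, 10.17 and 10.19 in LRC, 11.21, 10.82 and 11.16 in EpiC, and 12.72, 12.77 and 12.67 in EndoP. It measured 11.86, 12.07 and 11.83 in Peri and 12.16, 12.74 and 12.65 in Stele. All arrays of LRC and EpiC lay below all arrays of Peri, and these below all arrays of Stele and EndoP, which overlapped each other. LRC and EpiC overlapped too. Against the mean of the other 4 populations, rpoA was lower in LRC by -1.60 ± 0.29 (SE, adjusted p = 8.5e-05), higher in EndoP by 1.23 ± 0.29 (adjusted p = 0.0098) and higher in Stele by 0.98 ± 0.29 (adjusted p = 0.018). Its F test over the 5 populations had the smallest p among the members (adjusted p = 1.24e-05), and both that test and the LRC difference passed in all 21 alternative settings. The EndoP and Stele differences each missed the threshold in 3 of 21: with array signal as a covariate (adjusted p = 0.175 and 0.451) and without replicate 2 or 3 of the population itself. The other RNA polymerase genes, rpoB, rpoC1 and rpoC2, passed in none of the 5 contrasts.

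The ATP synthase genes atpB and atpE, coding for the beta and epsilon subunits, lie next to each other and are cotranscribed. In Stele, atpE measured 10.64, 9.84 and 9.45, against 12.37, 11.28 and 11.03 in LRC and 11.98, 11.93 and 11.66 in EpiC. It measured 12.13, 12.06 and 10.56 in EndoP and 12.12, 11.90 and 11.68 in Peri. Only EndoP replicate 3 reached into the range of Stele, and the difference was -1.75 ± 0.43 (adjusted p = 0.00594). For atpB the values were 8.37, 7.94 and 7.69 in Stele, against 10.88, 10.20 and 9.99 in Peri, and the Stele difference was -1.67 ± 0.45 (adjusted p = 0.00973). The alpha subunit gene atpA had a Stele difference of 0.19 (adjusted p = 0.776) and was higher in EndoP, where it measured 10.41, 10.78 and 9.99, against 8.61, 8.60 and 8.59 in LRC (EndoP difference 1.17 ± 0.41, adjusted p = 0.0448). The membrane subunit gene atpI measured 5.22, 4.43 and 4.45 in Stele, against 6.79, 6.07 and 4.46 in Peri, overlapped between populations and passed in no contrast.

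In photosystem II, psbM, a small subunit, was lower in Stele by -1.91 ± 0.62 (adjusted p = 0.0265). The gene psbB encodes the core antenna protein CP47. It measured 6.79, 6.10 and 6.40 in Stele, against 8.08, 8.31 and 8.93 in EpiC and 8.29, 6.93 and 8.07 in LRC. It measured 6.82, 6.92 and 6.44 in EndoP and 8.09, 7.07 and 7.72 in Peri. Stele was below LRC, EpiC and Peri on every array and overlapped EndoP, with a Stele difference of -1.21 ± 0.44 (adjusted p = 0.0438); the EpiC difference was 1.30 ± 0.44 (adjusted p = 0.0767). In photosystem I, psaC, the iron-sulphur subunit, overlapped between all 5 populations: 8.63, 8.02 and 7.63 in Stele beside 8.94, 7.31 and 8.24 in LRC (F test adjusted p = 0.653).

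Of the cytochrome b6f genes, petA and petB, coding for cytochrome f and cytochrome b6, were lower in Stele by -1.55 ± 0.47 and -1.25 ± 0.41 (adjusted p = 0.019 and 0.0264). The gene of the large subunit of Rubisco, rbcL, measured 7.60, 6.68 and 6.76 in Stele, against 9.21, 8.43 and 8.29 in LRC and 8.87, 8.07 and 8.94 in Peri. It measured 8.21, 8.36 and 7.91 in EpiC and 8.16, 7.63 and 7.34 in EndoP. Stele overlapped only EndoP, and rbcL was lower there by -1.27 ± 0.39 (adjusted p = 0.0205). The protease subunit gene clpP and the ribosomal gene rps4 were lower by -1.51 ± 0.48 and -1.47 ± 0.47 (adjusted p = 0.0248 and 0.0249).

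None of the 7 genes of the large ribosomal subunit passed in any single population, and rpl14 passed the F test over the 5 (adjusted p = 0.0281). The gene rpl14 measured 9.45, 8.61 and 8.83 in Peri, against 6.91, 7.09 and 7.01 in Stele and 6.83, 7.00 and 6.91 in EpiC. All 3 Peri arrays were above those of Stele, EpiC and EndoP, and the Peri difference was 1.57 ± 0.49 (adjusted p = 0.0538). The genes rpl16 and rpl32 measured 10.05, 10.66 and 11.25 and 10.75, 10.03 and 10.41 in Peri, with Peri differences of 1.20 ± 0.53 and 1.13 ± 0.70 (adjusted p = 0.212 and 0.369). Across all members, 65 of 69 differences were above 0 in Peri with a median of 0.785, beside 0.005 over all probe sets; 0 passed in limma and 20 had an unadjusted p under 0.05 (29% of the members, and 18.5% of all probe sets). Of all probe sets 4.05% passed in Peri. In a fit of the KCl arrays alone, 21 members passed in Peri. The 4.05% is from the main fit, and the share of all probe sets in the KCl fit is not given here.

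Few plastid genes passed in the other populations. In LRC, rpoA and the small-subunit ribosomal gene rps18 (-1.54 ± 0.58, adjusted p = 0.0466) were the only 2, both lower, where 11.7% of all probe sets were lower and 23.6% passed in either direction. In EndoP, rpoA and atpA were the only 2, both higher, where 10.3% of all were and 16.3% passed in either direction; atpA missed the threshold in 12 of 21 alternatives, and neither passed with array signal as a covariate or without EndoP replicate 2 or 3. The rps18 call in LRC was lost in 12 of 21 too. In EpiC 0 passed in limma, where 4.21% of all probe sets did. An unadjusted p under 0.05 was found for 7 members (10.1%), beside 21.9% of all. In a fit of the KCl arrays alone, 11 members passed in EpiC, again without the share of all probe sets in that fit. The F test over the 5 populations called 11 of 69 members (15.9%), beside 41.1% of all probe sets; after rpoA the smallest adjusted p-values were those of atpB (0.00851), psbB (0.0155), atpE (0.0167), petB (0.0215) and psbJ, a small photosystem II subunit (0.0241).

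The nuclear photosynthesis list, set beside these counts, had 8 of 13 genes lower and 1 higher in Stele (median -1.19), 7 lower and 1 higher in EndoP, and 8 higher in EpiC (median 2.06). Array signal, a mean over unlogged probe set values with 2% trimmed on either side, was 192 to 314 on the Stele arrays and 236 to 277 on the EndoP arrays, beside 170 to 182 in LRC, EpiC and Peri. With array signal as a covariate 1 of the 14 Stele calls was left, atpE, and 4 were called on the values as deposited. The Stele count was 0 without Stele replicate 2 or 3 and 9 without EndoP replicate 1, but 37 in a fit of the KCl arrays alone. The F test's 11 became 6 and 7 without Peri replicates 1 and 3, and 5 and 4 without Stele replicates 2 and 3. It became 45 on the KCl arrays alone. For the 37 and the 45 the share of all probe sets in the same fit is not given, so they do not show an excess of plastid genes.

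**Figure D2:**
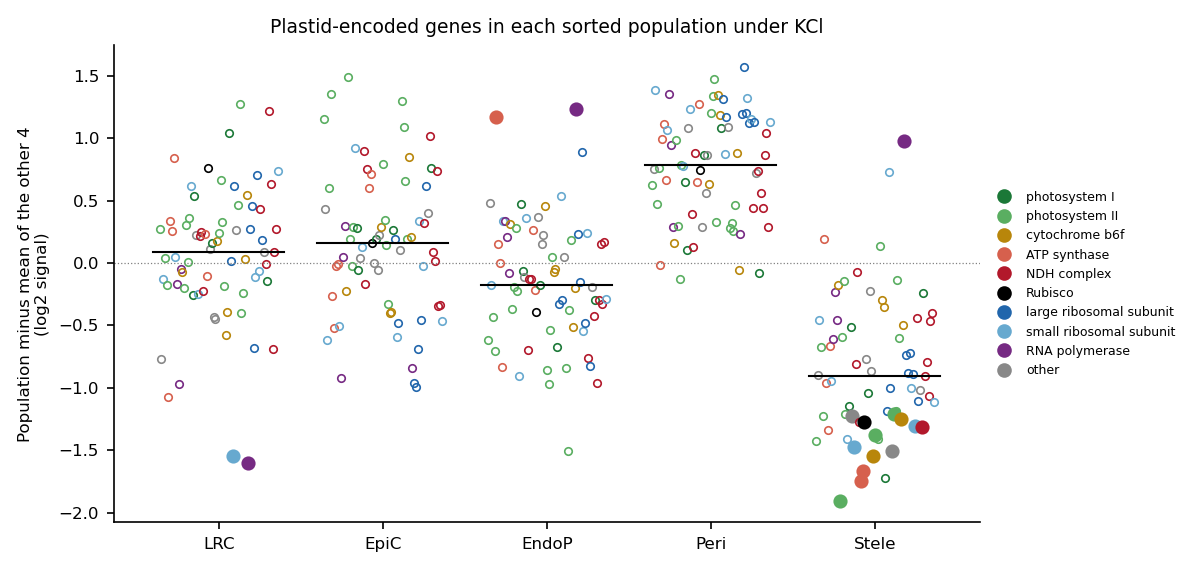
Difference of each of the 69 plastid-encoded genes between a sorted population and the mean of the other 4 in KCl (log2 signal), coloured by role and drawn from left to right in gene order within a population; large filled points passed an adjusted p of 0.05 and black bars are medians. The Peri median is 0.785 and the Stele median -0.905, and the purple point at 0.98 in Stele is rpoA.

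Nitrate was tested against KCl in each population, with the continuous and transitory groups averaged. The same KCl arrays entered the population contrasts above, which also share arrays among themselves. Population and nitrate differences are therefore not independent of each other. In Peri 11 of 69 plastid genes (15.9%) fell, where 10.9% of all probe sets fell and 23.3% passed in either direction. These were 3 ribosomal genes of the large subunit, 3 of the small subunit, 3 photosystem II genes, rbcL and ycf3, an assembly factor of photosystem I. The share of members that passed was thus below that of all probe sets in either direction. At an unadjusted p under 0.05 were 31 members (44.9%), near the 43.5% of all. The median difference was -1.06 over the members and -0.14 over all probe sets, and 65 of 69 differences were below 0.

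The photosystem II genes psbL and psbF lie side by side in the psbE unit, and psbF encodes a subunit of cytochrome b559. In Peri, psbL measured 6.89, 6.73 and 5.48 in continuous and 6.77, 6.89 and 5.95 in transitory nitrate, against 9.71, 7.50 and 8.26 in KCl. For psbF the values were 7.26, 7.01 and 6.71 in continuous and 7.22, 7.55 and 6.61 in transitory nitrate, against 10.02, 7.94 and 8.96 in KCl. After quantile normalization all 6 nitrate arrays were below the 3 KCl arrays for both genes. These fell by 2.04 ± 0.63 and 1.91 ± 0.59 (adjusted p = 0.0262 and 0.0255). As deposited, the plastid medians of these arrays overlapped, at 7.03 to 8.71 in nitrate and 7.88 to 8.66 in KCl. With psbJ (-1.52), 3 of the 4 genes of the unit fell.

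Among the ribosomal genes, rpl14 measured 7.92, 7.22 and 6.96 in continuous and 7.59, 7.29 and 6.45 in transitory nitrate, against 9.45, 8.61 and 8.83 in KCl, again with no overlap (-1.73 ± 0.53, adjusted p = 0.0254). The genes rpl20, rps15 and rps16 fell by 1.85 ± 0.67, 1.91 ± 0.67 and 1.75 ± 0.60 (adjusted p = 0.0426, 0.0379 and 0.0352), and rpl22 and rps3 by 1.66 and 1.53. For rpl16 (-1.23, adjusted p = 0.0983) and rpl32 (-1.97, adjusted p = 0.0536) the test did not pass; rpl32 had 1 low array, replicate 3 of continuous nitrate, at 5.29, against 10.75, 10.03 and 10.41 in KCl.

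In Peri, rbcL measured 7.54, 7.08 and 7.19 in continuous and 7.44, 7.39 and 7.99 in transitory nitrate, against 8.87, 8.07 and 8.94 in KCl. Nitrate arrays were all below KCl arrays, and the difference was -1.19 ± 0.43 (adjusted p = 0.042). For psbB the difference was -0.61 (adjusted p = 0.309), for atpI -0.57 (adjusted p = 0.385) and for psaC 0.71 (adjusted p = 0.255); psaC was 1 of 4 members above 0.

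Array signal was 177 to 372 on the nitrate arrays of Peri, against 173 to 177 on its KCl arrays, and with array signal as a covariate 0 members passed (psbL -1.47, adjusted p = 0.710), and 2 passed on the values as deposited, 1 lower and 1 higher. The 11 became 0 without KCl replicate 1 or 3, without transitory replicate 1, or on these 9 arrays alone, 4 without transitory replicate 2, 3 without continuous replicate 2, 7 in continuous nitrate alone and 0 in transitory nitrate alone. The nuclear photosynthesis list had 0 of 13 genes past the test in Peri (median -0.14), and the mitochondrion-encoded genes had 1 of 20 lower (median -0.15).

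In the other populations no plastid gene passed for nitrate in limma. In EpiC, 65 of 69 differences were below 0 with a median of -0.69, and 0.597% of all probe sets passed. An unadjusted p under 0.05 was found for 12 members (17.4%), beside 3.09% of all. There psbA, coding for the D1 reaction centre protein, measured 6.81, 7.11 and 6.28 in continuous and 9.29, 5.91 and 6.61 in transitory nitrate, against 9.21, 8.84 and 8.58 in KCl (-1.87 ± 0.60, adjusted p = 0.294). Replicate 1 of transitory nitrate lay above the KCl arrays and the other 5 nitrate arrays below them; without it 1 member passed. The NDH gene ndhD had -1.51 (adjusted p = 0.425). Beside this, 9 of the 13 nuclear photosynthesis genes fell in EpiC, with a median of -2.38.

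In LRC, 60 of 69 differences were below 0 with a median of -0.445, and 0.0156% of all probe sets passed. An unadjusted p under 0.05 was found for 3 members (4.35%), beside 5.97% of all. The NDH gene ndhE measured 5.09, 7.73 and 6.66 in continuous and 6.49, 6.70 and 6.77 in transitory nitrate, against 8.93, 8.27 and 8.53 in KCl. The groups did not overlap, and the difference was -2.00 ± 0.57 (adjusted p = 0.415); ndhG had -1.29 (adjusted p = 0.787).

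In EndoP the median was 0.11, 0 members had an unadjusted p under 0.05 and 0% of all probe sets passed; the smallest p-values were those of ndhJ (0.76) and ycf3 (0.64, both adjusted p = 1.00). In Stele 63 of 69 differences were above 0 with a median of 0.74, beside 0.13 over all probe sets, and 0.0363% of all probe sets passed. An unadjusted p under 0.05 was found for 10 of 69 members, a share near the 14.8% of all probe sets. There ycf3 measured 8.61, 9.31 and 8.57 in continuous and 7.62, 10.32 and 9.35 in transitory nitrate, against 7.33, 7.50 and 7.50 in KCl. Every nitrate array was above the KCl arrays, and the difference was 1.52 ± 0.50 (adjusted p = 0.236), followed by rps19 at 1.38 (adjusted p = 0.256).

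Whether the nitrate effect differed between populations was tested with an interaction F test: 0 of 69 members passed in limma, beside 0.0156% of all probe sets. An unadjusted p under 0.05 was found for 20 members (29%) and 25.9% of all. The smallest adjusted p-values were those of ycf3 (0.0696), rpl14 (0.075), ndhE (0.0791) and rps3 (0.0874). The count became 12 without Stele transitory replicate 1, 5 without LRC continuous replicate 2 or without Peri transitory replicate 3, 3 without Stele KCl replicate 1, and 1 without EndoP continuous replicate 2 or Peri continuous replicate 3. Averaged over the 5 populations, 66 of 69 differences were below 0 with a median of -0.27. In limma 0 members passed, beside 0.727% of all probe sets, and 7 members (10.1%) and 7.93% of all had an unadjusted p under 0.05. First came ndhE (-0.69, adjusted p = 0.381) and psbJ (-0.60, adjusted p = 0.470). Continuous against transitory nitrate gave 0 members and 0% of all probe sets, with 0 members at an unadjusted p under 0.05; psbZ (-0.55) and psbN (-0.35) had the smallest p (both adjusted p = 1.00).

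**Figure D3:**
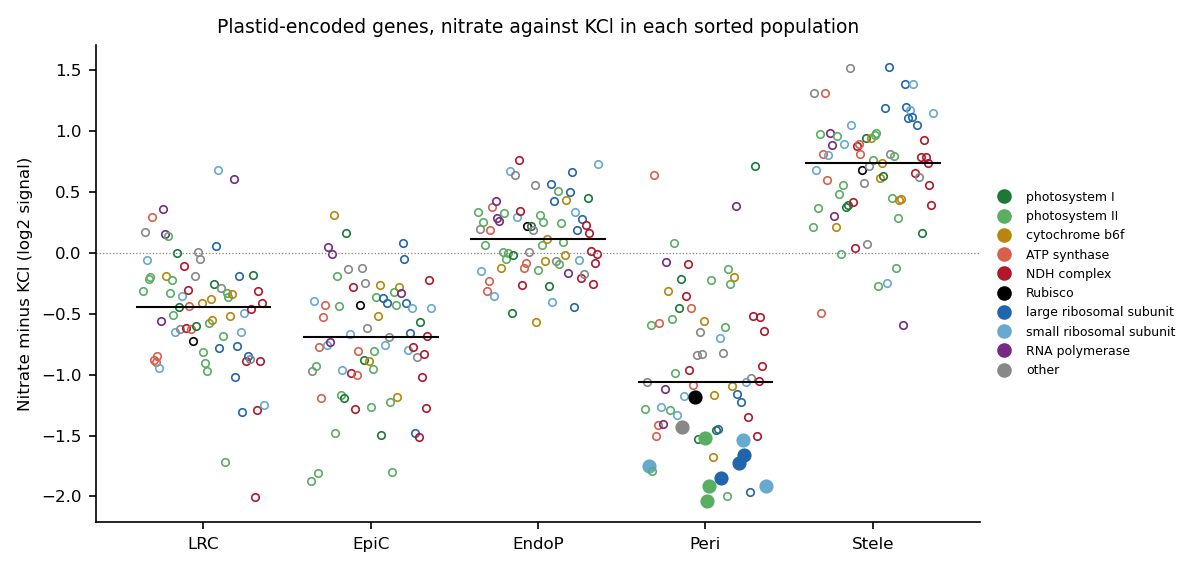
Nitrate minus KCl (log2 signal) for each of the 69 plastid-encoded genes in the 5 sorted populations, drawn as in the plot of populations: colour is role, large filled points passed an adjusted p of 0.05, black bars are medians. The medians run from -1.06 in Peri to 0.74 in Stele, and the 11 filled points are all in Peri.

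MSX was tested in Peri cells. In continuous nitrate, 4 of 69 plastid genes rose with MSX, all of them NDH genes: ndhG, ndhE, ndhA and ndhH. The NDH complex passes electrons from ferredoxin to plastoquinone around photosystem I. All 4 lie in the ndhH unit, a stretch of 8 members that are transcribed together in part, and the unit's median difference was 1.84. Of all probe sets 6% rose and 9.08% passed in either direction, beside 5.8% of the members. The share of members that rose was thus near that of all probe sets. By role the median difference ran from 0.63 (photosystem I) to 1.59 (large ribosomal subunit), with 1.35 for the NDH genes, so the rise was not particular to them. The members' median was 1.045, beside -0.03 over all probe sets, and 66 of 69 differences were above 0.

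The gene ndhH measured 8.34, 6.33 and 7.02 in continuous nitrate with MSX, against 5.60, 5.32 and 5.27 without. For ndhG the values were 9.29, 7.58 and 9.30 with MSX, against 7.08, 6.39 and 6.41 without. For ndhE they were 9.37, 7.53 and 9.22 with MSX, against 6.75, 6.61 and 6.50 without. All 3 MSX arrays were above the arrays without it for these genes, and replicate 2 was the lowest MSX array each time. For ndhA the values overlapped, 8.68, 6.80 and 8.72 with MSX, against 7.04, 6.36 and 5.29 without. The differences were 1.84 ± 0.46 for ndhH (adjusted p = 0.0106), 2.09 ± 0.63 for ndhG (0.0298), 2.08 ± 0.66 for ndhE (0.0391) and 1.84 ± 0.60 for ndhA (0.0462).

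The same unit holds psaC, rps15, ndhI and ndhD, which did not pass; psaC measured 9.24, 8.52 and 9.16 with MSX and 8.72, 8.59 and 10.21 without, a difference of -0.20 (adjusted p = 0.837). The differences of rbcL, psbB, rpl14, rpl32 and atpI were 1.34, 1.44, 1.02, 2.09 and 1.045 (adjusted p = 0.0741, 0.087, 0.276, 0.118 and 0.255). Array signal was 175 to 289 with MSX, highest on replicate 2, against 205 to 372 without. The 4 calls became 25 without MSX replicate 2, 0 without MSX replicate 1, 1 without MSX replicate 3 or nitrate replicate 2, 2 without nitrate replicate 3, and 0 with array signal as a covariate or on these 6 arrays alone.

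In KCl, MSX gave 0 calls among the members in limma, where 0.0675% of all probe sets passed. An unadjusted p under 0.05 was found for 4 members (5.8%), beside 7.98% of all. The smallest p was again that of ndhH, which measured 7.95, 8.69 and 6.13 with MSX, against 6.62, 5.53 and 5.63 in KCl alone (1.66 ± 0.46, adjusted p = 0.170), followed by ndhK at 1.32 (adjusted p = 0.402); 1 passed without MSX replicate 3. The MSX groups in nitrate and in KCl, compared with each other, gave 0 calls, 0 members at an unadjusted p under 0.05 and 0% of all probe sets; rpoB (-0.51) and ndhK (-0.63) had the smallest p (both adjusted p = 1.00). Glutamine, added to nitrate and MSX, gave 0 calls among the members, where 0.696% of all probe sets passed. An unadjusted p under 0.05 was found for 4 members (5.8%), beside 12.7% of all. With glutamine ndhH measured 6.14, 6.14 and 5.37, below every array with nitrate and MSX alone (-1.35 ± 0.46, adjusted p = 0.166), and rbcL had -1.25 (adjusted p = 0.241). These 4 comparisons share groups, so their differences are not independent of each other.

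**Figure D4:**
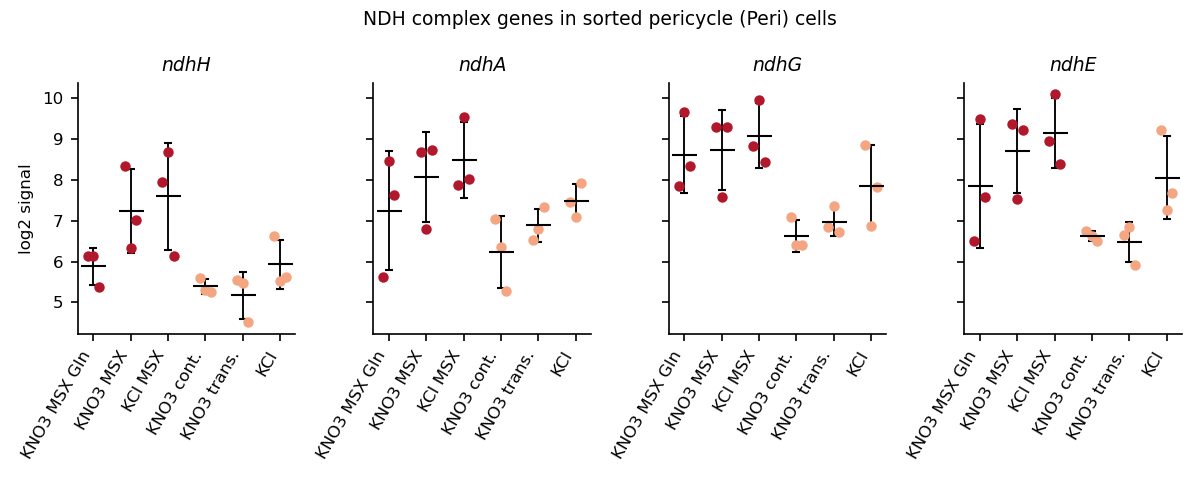
Log2 signal of ndhH, ndhA, ndhG and ndhE in the 6 groups of Peri cells; points are arrays, bars the mean with the SD (3 arrays each), dark points groups with MSX. In continuous nitrate with MSX the ndhH arrays lie between 6.33 and 8.34, above the arrays without MSX at 5.27 to 5.60.

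In whole roots and protoplasts 68 members could be tested: atpI was below the filter on low values, with 2.88 to 3.24 in frozen roots at 3.5 h, against 3.37 to 4.94 in the 2 h arrays used.

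In frozen roots, 19 of 68 plastid genes were lower at 3.5 h than at 2 h and 0 were higher. Of all 17152 probe sets tested 1.21% were lower and 2.8% passed in either direction, beside 27.9% of the members. By role, 4 of 7 large-subunit and 3 of 8 small-subunit ribosomal genes, 4 of 10 NDH genes and 3 of 15 photosystem II genes were lower. All 7 members of the rpl23 unit, a run of genes for ribosomal proteins that ends with rpoA, were among the 19. The median difference was -0.78 over the members and -0.02 over all probe sets.

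The ribosomal gene rpl16 measured 5.22, 4.73 and 4.49 in KNO3 and 4.77, 4.90 and 4.76 in KCl at 3.5 h, against 7.42, 5.64 and 7.45 in KNO3 and 7.28 and 7.87 in KCl at 2 h. For rpl14 the values were 4.82, 4.24 and 4.10 in KNO3 and 4.39, 4.58 and 4.14 in KCl at 3.5 h, against 6.58, 5.30 and 6.44 in KNO3 and 6.34 and 6.75 in KCl at 2 h. No 3.5 h array reached a 2 h array for either gene, and KNO3 replicate 2 was the lowest of the 2 h arrays. They were lower by -2.39 ± 0.35 and -1.95 ± 0.30 (adjusted p = 0.00181 and 0.00189). Within the unit rps3 had -1.51 ± 0.25, rps19 -1.19, rpl22 -1.14, rpl36 -0.95 and rpoA -0.93.

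Outside the unit, clpP measured 7.95, 7.53 and 7.11 in KNO3 and 7.53, 7.25 and 6.86 in KCl at 3.5 h, against 9.97, 7.99 and 9.26 in KNO3 and 9.48 and 9.52 in KCl at 2 h. It was lower by -1.91 ± 0.37 (adjusted p = 0.00833), with KNO3 replicate 2 only just above the 3.5 h arrays. The photosystem I reaction centre gene psaB was lower by -1.59 ± 0.30 (adjusted p = 0.00644) and atpA by -1.48 ± 0.38 (adjusted p = 0.0418). The 4 genes of the psbE unit, which encode cytochrome b559 and its neighbours in photosystem II, had differences above 0, from 0.29 for psbL to 0.49 for psbF, and did not pass. The differences of psaC, psbB, rbcL and rpl32 were -0.73, -0.60, -0.62 and -0.64 (adjusted p = 0.137, 0.229, 0.075 and 0.303).

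The mitochondrion-encoded genes and the nuclear photosynthesis genes had 0 of 21 and 0 of 13 past this test, with medians of 0.03 and -0.19. Treatment began at dawn, so length of treatment and time of day cannot be told apart. RNA quality, read from the GAPDH controls as the 3' minus 5' difference in log2 signal, gave 0.44 to 1.08 (median 0.53) at 3.5 h, against 0.61 to 2.47 (median 1.38) on the 2 h arrays used, and its part in the result was not tested. Within KNO3 alone and within KCl alone 0 members passed, with medians of -0.67 and -0.77 and rpl16 at -2.02 and -2.76 (adjusted p = 0.0593 and 0.0994). The count of 19 became 3 without 2 h KCl replicate 3, 11 or 12 without 2 h KNO3 replicate 1, 3.5 h KCl replicate 2 or 3, or 3.5 h KNO3 replicate 3, and 7 with all 30 arrays.

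Protoplasts were compared with roots incubated in the same solution without enzymes, treatment by treatment. Of 68 members 26 were higher in protoplasts and 0 lower, where 14.8% of all probe sets were higher and 25.3% passed in either direction, beside 38.2% of the members. Again all 7 members of the rpl23 unit were among them, and the median over the members was 0.615, beside 0.03 over all probe sets. The unit's median was 1.52. By role, 5 of 7 large-subunit ribosomal genes, 3 of 8 small-subunit genes, 5 of 10 NDH genes, 3 of 5 ATP synthase genes and 2 of 15 photosystem II genes rose.

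The gene rpl22 measured 8.52, 7.14 and 8.08 in continuous nitrate, 7.79, 7.45 and 8.15 in transitory nitrate and 7.56, 7.38 and 7.48 in KCl in protoplasts. In incubated roots it measured 5.52 and 6.73, then 6.52, 6.05 and 6.28, and 4.95 in the same treatments. No protoplast array overlapped an incubated array, and the difference was 1.94 ± 0.26 (adjusted p = 6.54e-05). The genes rpl14, rps3 and rpl16 rose by 1.66 ± 0.28, 1.62 ± 0.23 and 1.52 ± 0.32 (adjusted p = 0.000336, 0.000119 and 0.00197), and atpA and atpF, both of the atpI unit, by 1.19 ± 0.35 and 1.17 ± 0.27 (adjusted p = 0.0168 and 0.00396). For rpl16 the values were 6.91, 8.28 and 8.25 in protoplasts, against 5.00, 4.67 and 4.93 in incubated roots, in transitory nitrate. The calls of rpl22, rpl14, rps3, rpl16 and atpF held in all 22 alternative settings.

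The differences of psaC, psbB, rbcL and rpl32 were 0.60, 0.34, 0.30 and 0.405 (adjusted p = 0.074, 0.325, 0.207 and 0.343). The psbE unit again stood aside, from -0.29 for psbJ to 0.115 for psbL. The nuclear photosynthesis list moved the other way, with 8 of 13 genes lower (median -0.45), and 6 of 21 mitochondrion-encoded genes were higher (median 0.37). RNA of protoplasts was purified on columns and RNA of roots with TRIzol, so enzyme digestion and RNA purification cannot be told apart. The 26 became 47 without protoplast KCl replicate 3, whose plastid median was 5.54 beside 6.80 and 6.92 in its group, 49 in transitory nitrate alone, 43 with array signal as a covariate and 13 with all 30 arrays.

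Incubated roots were compared with frozen roots of 3.5 h, in continuous nitrate against KNO3 and in KCl against KCl. Of 68 members 35 were higher in incubated roots and 0 lower, where 6.54% of all probe sets were higher and 18.3% passed in either direction, beside 51.5% of the members; the median was 0.95, beside -0.01 over all. By role, 8 of 15 photosystem II, 3 of 5 photosystem I, 6 of 10 NDH, 3 of 7 large-subunit and 3 of 8 small-subunit ribosomal genes were higher. The 6 with the largest differences were psbA 2.36 ± 0.49 (adjusted p = 0.00698), clpP 2.04 ± 0.45 (0.00879), psaI 1.91 ± 0.53 (0.0226), psbK 1.90 ± 0.29 (0.0028), rpl16 1.83 ± 0.41 (0.00994) and psbT 1.82 ± 0.62 (0.0479), where psbK and psbT code for small subunits of photosystem II and psaI for one of photosystem I.

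These calls rest on 3 arrays of incubated roots, replicates 1 and 3 of continuous nitrate and replicate 3 of KCl. On them psbA measured 7.80, 7.79 and 8.48, against 5.59, 5.67 and 5.57 in KNO3 and 6.02, 5.88 and 5.92 in KCl in frozen roots. In transitory nitrate, which did not enter this comparison, psbA measured 5.69, 5.84 and 6.22 in incubated roots, close to frozen roots. The GAPDH 3' minus 5' difference had the same split: 5.10, 1.83 and 2.49 on those 3 arrays and 0.41 to 1.05 in transitory nitrate, against 0.44 to 1.08 in frozen roots, and its part in the result was not tested. The gene psaC showed the same split, with 7.44, 6.68 and 6.36 on those 3 arrays and 4.97, 4.63 and 4.95 in transitory nitrate, against 4.93, 4.98 and 4.95 in KNO3 and 5.16, 5.04 and 4.77 in KCl in frozen roots (1.74 ± 0.32, adjusted p = 0.00539). Differences of psbB, rbcL, rpl14 and rpl32 were 1.45, 1.19, 1.50 and 0.83 (adjusted p = 0.00861, 0.00565, 0.0129 and 0.123).

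Incubated roots in transitory nitrate, set against frozen roots in KNO3 at 3.5 h, gave 0 calls among the members with a median of 0.03, and clpP and psbK changed sign (-0.16 and -0.17). The 35 became 17 without continuous nitrate replicate 1, whose median correlation with the other arrays was 0.738, 22 without frozen KCl replicate 3, 0 in KCl alone and 30 in continuous nitrate alone. The nuclear photosynthesis list moved the same way, with 9 of 13 genes higher (median 0.72), and its part in the result was not tested. The protoplast comparison shares the incubated arrays with this one, and this one shares the 3.5 h arrays with the comparison of times, so their signs are not independent of each other.

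**Figure D5:**
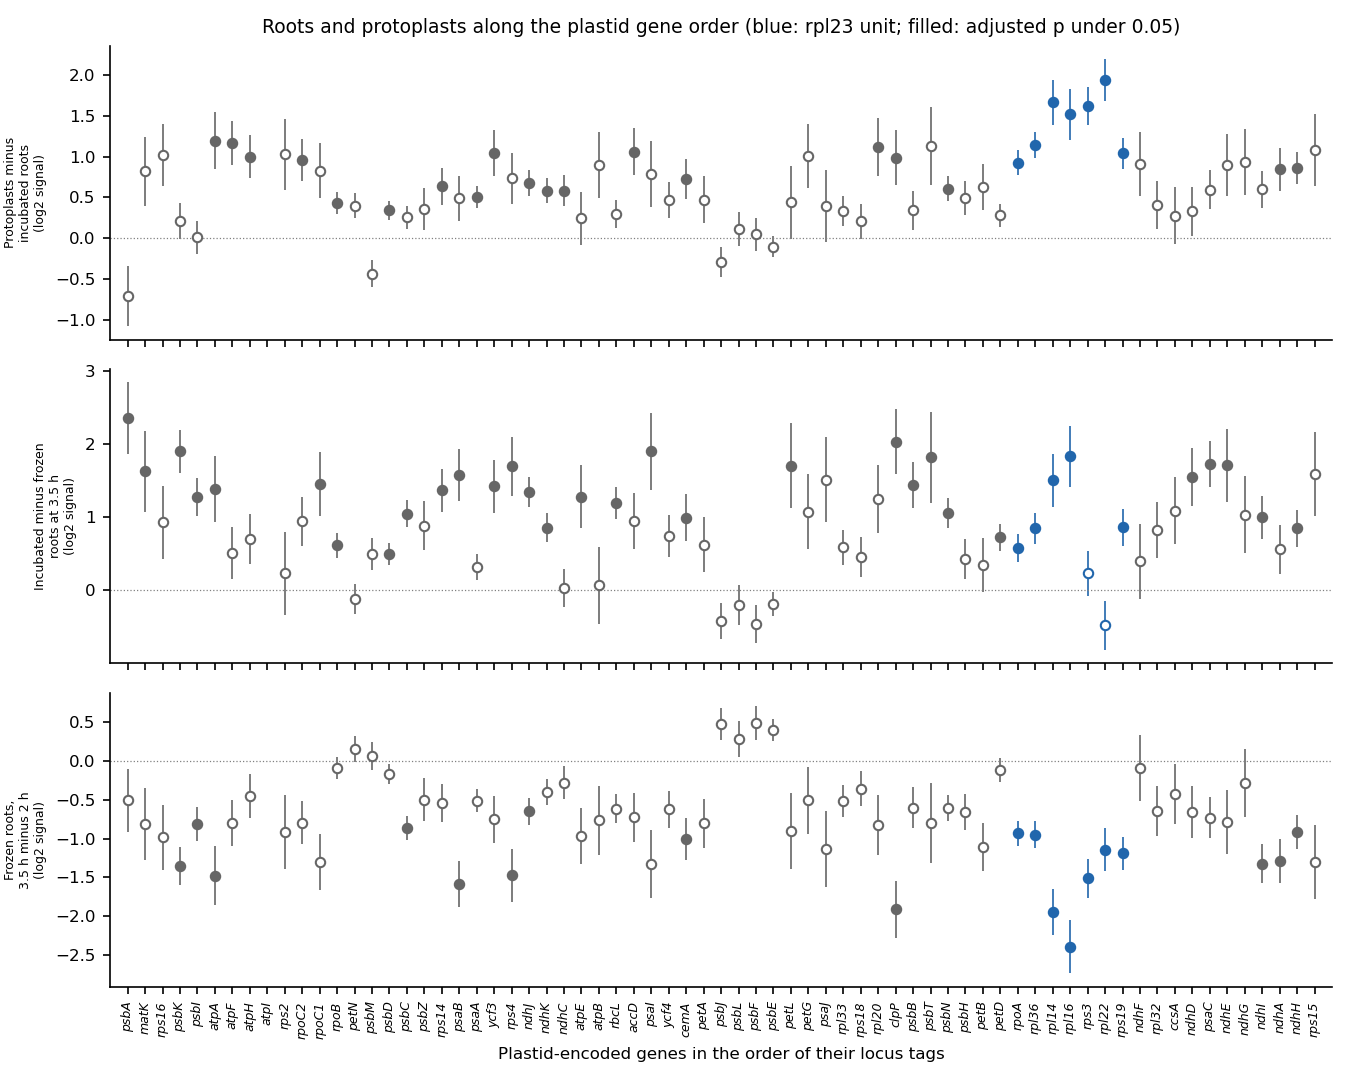
Log2 difference with its SE for 68 plastid-encoded genes in the order of their locus tags: protoplasts minus incubated roots (top), incubated roots minus frozen roots at 3.5 h (middle), and frozen roots at 3.5 h minus 2 h (bottom). Filled points passed an adjusted p of 0.05; the 7 blue points of the rpl23 unit are all filled at the top, from 0.93 (rpoA) to 1.94 (rpl22), and at the bottom, from -2.39 (rpl16) to -0.93 (rpoA), while psbJ, psbL, psbF and psbE stay within 0.50 of 0 in all 3 panels.

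Nitrate gave 0 plastid calls within protoplasts, incubated roots or frozen roots in limma, and 0% of all probe sets in each. In protoplasts 62 of 68 differences were above 0 with a median of 0.56 and 27 had an unadjusted p under 0.05 (39.7% of the members and 5.6% of all). The KCl reference holds a low array, replicate 3, with a plastid median of 5.54 beside 6.80 and 6.92. Over 18 alternative settings the members' median ran from 0.12 to 0.915. The gene psaB measured 8.28, 7.80 and 8.47 in continuous and 7.67, 8.14 and 8.40 in transitory nitrate, against 6.63, 7.40 and 5.86 in KCl, with no overlap (1.50 ± 0.34, adjusted p = 0.398); atpF had 1.34 (adjusted p = 0.480), and 5 members passed without KCl replicate 2. In incubated roots the median was -0.39 and 7 had an unadjusted p under 0.05 (10.3% of the members and 5.72% of all). There psbK (-1.32) and rpl33 (-1.03) came first (both adjusted p = 0.835). In frozen roots the median was 0.002, 0 had an unadjusted p under 0.05, and rpl32 (-0.415) and rps3 (-0.33) came first (both adjusted p = 1.00).

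Replicates of a group differed in their plastid genes as a block. The SD of the members' median between arrays of a group was 0.59 in sorted cells and 0.37 in roots and protoplasts. Stele in transitory nitrate had medians of 6.92, 9.65 and 8.07, and Peri in KCl with MSX had 8.77, 10.08 and 8.43. After group means were subtracted, the median Pearson correlation over 2346 pairs of members was 0.53 in the 54 sorted arrays and 0.61 in 25 of the 1-cycle arrays, those of groups with more than 1 array. Each member was also correlated with the median of the others: 59 of 69 (85.5%) were above 0.5 in sorted cells and 57 of 69 (82.6%) in roots and protoplasts, while 4.33% and 7.8% of all other probe sets reached that value with the plastid median. These values share arrays, and no test was made.

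The members that did not follow were few. In sorted cells psaC (-0.04), rpoB (0.04), atpA (0.04) and rpoA (0.10) were under 0.2. In roots and protoplasts psbM (-0.36), rpoA (-0.35), rpl22 (-0.005), rps3 (0.02), psaC (0.11) and psbJ (0.17) were. Both rpoA and psaC were thus under 0.2 in both sets. The closest pair in sorted cells was psbL with psbF (0.94), neighbours in the psbE unit; in the 1-cycle arrays it was accD, a subunit of acetyl-CoA carboxylase, with matK, an intron maturase (0.97), which lie apart on the genome. Of the 69 members, 8 in sorted cells and 16 in roots and protoplasts had a direct neighbour as their best match. Neighbours had a median correlation of 0.59 and genes 20 places apart 0.48 in sorted cells, and 0.71 and 0.57 in roots and protoplasts.

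The plastid median of an array moved with that of the mitochondrion-encoded genes (r = 0.745 in sorted cells and 0.65 in roots and protoplasts, after group means were subtracted). With the nuclear photosynthesis list r was 0.28 and -0.17. With array signal it was -0.20 and -0.71. With the GAPDH 3' minus 5' difference it was -0.12 and 0.16. Whether any of these sets the plastid levels was not tested.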

How the data were processed

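The authors deposited 1 expression signal per probe set and array, read as log2 from its range (0 to 14.46); software, background correction and normalization are not given in the sources used here. Scanner files hold settings and no measurement. The 64 control probe sets were left out. Sorted (2-cycle) arrays were quantile normalized; 1-cycle arrays were used as deposited, keeping the 26 with a median Pearson correlation of at least 0.7 with the others. A probe set was tested if 3 or more arrays had it above the 40th percentile of a protocol's values. Each of 24 comparisons was a contrast in limma 3.58.1 (R 4.3.3; 1 coefficient per group, eBayes with an intensity trend, two-sided, Benjamini-Hochberg over all probe sets tested, adjusted p 0.05); "passed", "rose" and "fell" mean this threshold, and SE is limma's. With 3 arrays a group, their number limits the precision.

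Members and lists were chosen with earlier results of these data known. The genes psaC, psbB, atpI, rpl14, rpl16, rpl32 and rbcL were named in most comparisons where members passed, but not in all. Where no member passed they were mostly left out. Also named were up to 6 members with the largest rise and 6 with the largest fall among those that passed. The 2 smallest p-values were named where none passed, and 6 members in F tests. Others in the text were chosen after their values were seen. Units follow textbook plastid operons. Mitochondrion-encoded genes were taken by symbol (23 probe sets). Of 20 nuclear plastid RNA polymerase factors only RPOTmp had a probe set of its own; it passed in no comparison. EpiC groups were taken from titles, because all source names there read continuous. The correlation check counted no comparison as paired by replicate number. Some arrays of the same number did correlate: for nitrate in EpiC the median was 0.62 (-0.11 to 0.73), and in frozen roots 0.15 (-0.24 to 0.84). Figures used matplotlib 3.10.9.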

Additional observations from a re-analysis of the deposited data

Results flagged for a closer look

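The nitrate difference of ycf3 had opposite signs in Stele and Peri, where every nitrate array lay above the KCl arrays (1.52) or below them (-1.43). This gene was not alone in that. It was picked from the 69 members by this separation of arrays. Most members had the same signs: 63 of 69 were above 0 in Stele (median 0.74) and 65 of 69 below 0 in Peri (median -1.06). In limma the Stele difference of ycf3 did not pass (adjusted p = 0.236). The test of the ycf3 difference over the 5 populations gave an adjusted p of 0.0696 (0.06957, unadjusted p = 0.00154) and did not pass. The ycf3 differences in LRC, EpiC and EndoP were -0.62, -0.13 and 0.64. Array signal was 171 to 230 in nitrate against 192 to 314 in KCl in Stele. In Peri it was 177 to 372 in nitrate against 173 to 177 in KCl. Its part in the ycf3 result was not tested.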

How the results depend on the processing

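Of 507 alternative counts of plastid calls 416 were within 1.5 times the reported one and 91 were not. Counts of 0 that stayed 0 are among the 416, so this share does not measure how stable the calls were. Of 867 values of named members 667 stayed on their side of the threshold, 198 lost their call and 2 changed sign (clpP -0.159 and psbK -0.171, incubated roots in transitory nitrate). Members' medians kept their direction under each alternative in 13 of 22 comparisons. Moved counts follow, without the shares of all probe sets in the same settings, and no cause was tested. Values as deposited: F test 5, Stele 4, nitrate in Peri 2. No filter: EndoP 1. Without the 2 sorted arrays with the lowest correlations (EndoP transitory replicate 1, LRC continuous replicate 1): F test 17, LRC 4, Peri 1, interaction 1. Array signal as a covariate: F test 1, LRC 1, EndoP 0, Stele 1, nitrate in Peri 0, MSX in nitrate 0, protoplasts 43. Only the compared arrays: F test 45, LRC 8, EpiC 11, EndoP 9, Peri 21, Stele 37, nitrate in Peri 0, MSX in nitrate 0, frozen roots 29. The replicate block, for numbers that the check did not count as pairing samples, moved Peri to 1 and changed no other count by over 1.5 times. All 30 1-cycle arrays: protoplasts 13, frozen roots 7; quantile normalized: frozen roots 12. Added after the data were seen: nitrate in Peri 7 (continuous) and 0 (transitory); protoplasts 49 (transitory); incubated roots 17 (without continuous replicate 1), 0 (transitory) and 0 (KCl); frozen roots 0 (KNO3) and 0 (KCl).

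Leaving out 1 array at a time gave 4 to 16 (F test), 1 to 4 (LRC), 0 to 2 (EndoP), 0 to 1 (Peri), 0 to 17 (Stele), 0 to 14 (nitrate in Peri), 0 to 1 (nitrate in EpiC), 0 to 12 (interaction), 0 to 25 (MSX in nitrate), 0 to 1 (MSX in KCl), 20 to 47 (protoplasts), 17 to 31 (incubated), 3 to 21 (frozen) and 0 to 5 (nitrate in protoplasts), and 0 throughout elsewhere. LRC had 1 without LRC 1, EpiC 1 or 2, EndoP 2, Peri 3 or Stele 2 or 3, and 4 without Peri 1 or Stele 1; EndoP had 0 without EndoP 2 or 3 and 1 without EndoP 1, LRC 2 or 3, EpiC 1 or 2, Peri 1 or 2 or Stele 1; Peri had 1 without LRC 1 or EndoP 1. A fit without KCl replicate 3 of incubated roots, their 1 array, and a batch from the scanner files, whose dates are empty, were not run.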
